A study of Mus musculus with 4 samples.

Results

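The genes described here are 8 mucins and secreted goblet cell products: Muc2, Tff3, Fcgbp, Agr2, Zg16, Klk1, Spink4 and Muc13. They were chosen by name, out of 18193 genes that had a probe set of their own, and every probe set named for one of them alone was used, 15 of the 45037 probe sets in the table. RNA of small intestinal epithelial cells, loosened with EDTA and picked by hand under a stereomicroscope, was hybridised to 4 one-colour Affymetrix arrays. The labels placed 2 arrays in the AP-1B-/- group, from mice lacking the epithelial AP-1B clathrin adaptor, and 2 in the AP-1B+/- group, from heterozygous mice. All were healthy adults of the C57BL/6J strain, 10 weeks old and kept free of specific pathogens. The labels name neither the deleted part of the gene, nor the sex, nor whether the arrays stem from different animals. The 2 arrays of each label differed in sex pattern, as given below, so they did not stem from the same animal. Errors and p-values here thus rest on a spread within labels that also holds any difference by sex. No wild-type array was analysed here. Each array goes by its label and its number within that label, and a signal is a multiple of the array median.

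Goblet cells are secretory cells of crypt and villus that store mucin in granules and release it to build the mucus layer. The gel-forming mucin Muc2 is assembled in the endoplasmic reticulum, where Agr2 acts on its folding in mice, then O-glycosylated in the Golgi and packed with other secreted proteins such as Fcgbp, Zg16 and Tff3. Muc13 is of another kind, a transmembrane mucin of the apical surface that enterocytes carry too. In bulk samples such as these, fewer goblet cells and less RNA per goblet cell cannot be told apart.

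The targeted gene did not follow the labels. Ap1m2, which encodes the mu subunit of AP-1B, had a signal of 2.49 on AP-1B-/- 1 and 22.25 on AP-1B-/- 2, against 19.87 on AP-1B+/- 1 and 4.33 on AP-1B+/- 2 (probe set 1460190_at). A probe set outside the deleted part would not check the labels. Directions given by label below are therefore those of the arrays so labelled, and values are also given in the order of the Ap1m2 signal, without averaging or testing over that order. Whether AP-1B-/- 2 and AP-1B+/- 2 exchanged labels was not tested. Xist was high on both arrays numbered 2 (60.1 on AP-1B-/- 2 and 30.3 on AP-1B+/- 2) and at most 0.349 on those numbered 1, so each label held 1 array of either sex pattern, and a difference between arrays of the same number is one within a sex pattern. The enterocyte markers Fabp1 (910 and 582 in AP-1B-/-, against 707 and 770 in AP-1B+/-) and Alpi (590 and 485, against 588 and 539, in the same order) were high on all 4 arrays, but other enterocyte markers were low on AP-1B-/- 1, as given with the other cell types. The median log2 value of the probe sets above the filter on low values was higher by 0.36 on AP-1B-/- 1 than on AP-1B-/- 2 and by 0.40 on AP-1B+/- 2 than on AP-1B+/- 1. Differences between single arrays are therefore also given after quantile normalization, which removes this shift.

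Between the labelled groups, no goblet or mucus probe set passed the test. All 15 had a mean above the filter, and the limma fit over all 22519 such probe sets called 0 of them at an adjusted p under 0.05, as it called 0 over the whole table (0.0% called). At an unadjusted p under 0.05 there were 0 of the 15, with a lowest p of 0.20 for Muc13, against 170 of all probe sets tested (0.755%). By the probe set with the highest mean, 2 of the 8 genes had a higher and 6 a lower mean of log2 values in AP-1B-/-, with a median log2 difference of −0.146 beside 0.005 over all probe sets tested, of which 49.3% were lower. The groups did not overlap for 3 genes, Muc2, Fcgbp and Muc13, all lower in AP-1B-/-, where 17.3% of all probe sets tested did not overlap and 10.7% were lower in that way. After quantile normalization 2 of the 8, Fcgbp and Muc13, did not overlap (22.7% of all). These shares are of probe sets. Of the 15 goblet and mucus probe sets, 3 did not overlap on deposited values. After quantile normalization 3 did not, with Klk1 1455977_x_at among them. Every log2 difference of the 15 probe sets lay between −0.57 and 0.54, with standard errors of 0.32 to 0.70.

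**Figure D1:**
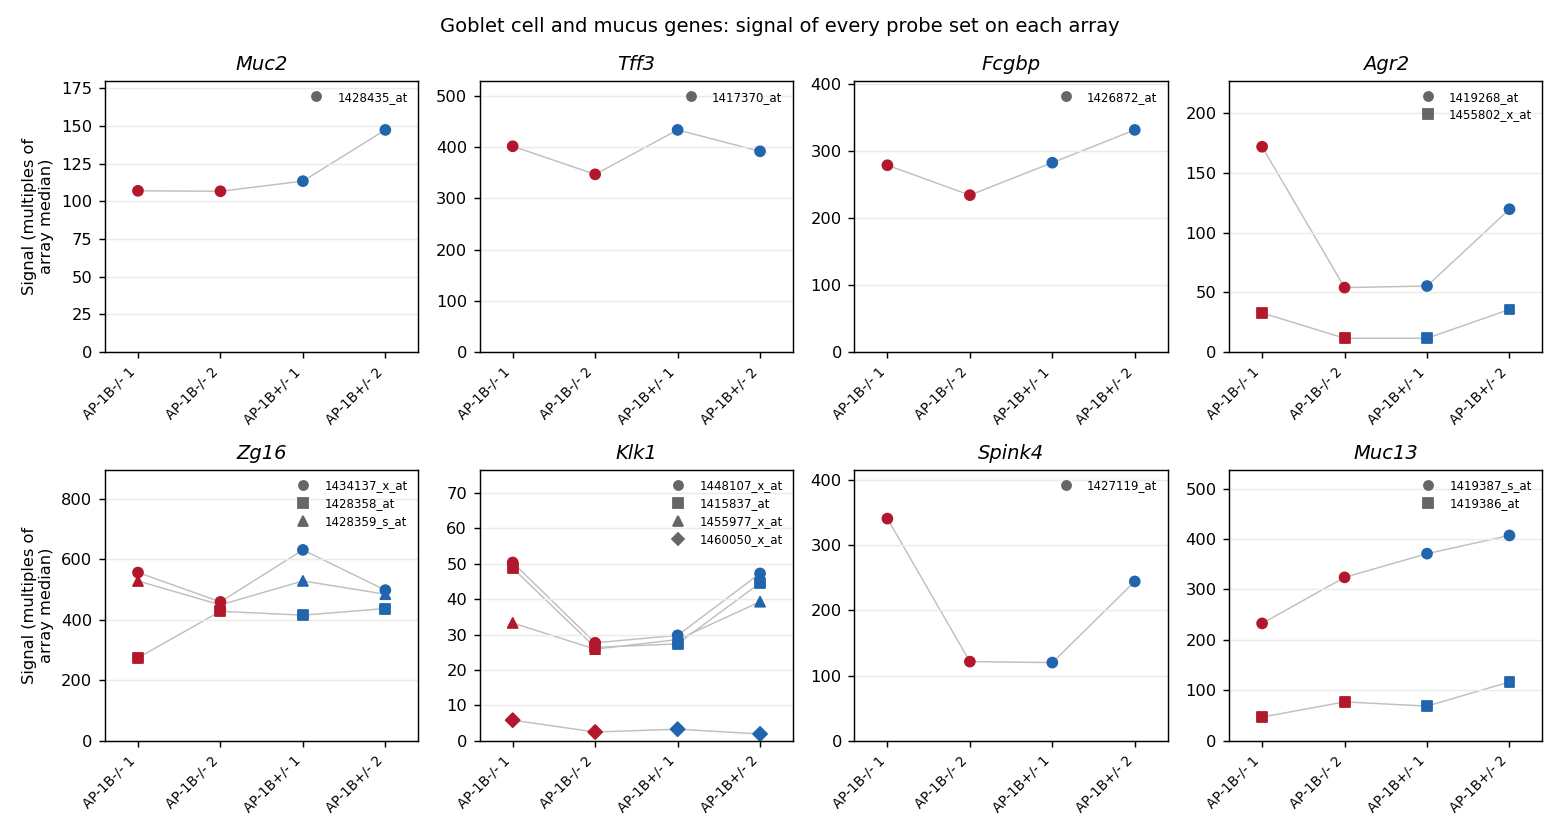
Signal (linear, in multiples of the array median, from 0) of each of the 15 probe sets on each array, with 1 panel per gene, red for AP-1B-/- and blue for AP-1B+/- arrays, a marker shape for each probe set and a thin line joining its values. Agr2, Spink4 and 3 of the 4 Klk1 probe sets were high on AP-1B-/- 1 and AP-1B+/- 2, while Muc2, Tff3 and Fcgbp varied by at most 1.42-fold.

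**Figure D2:**
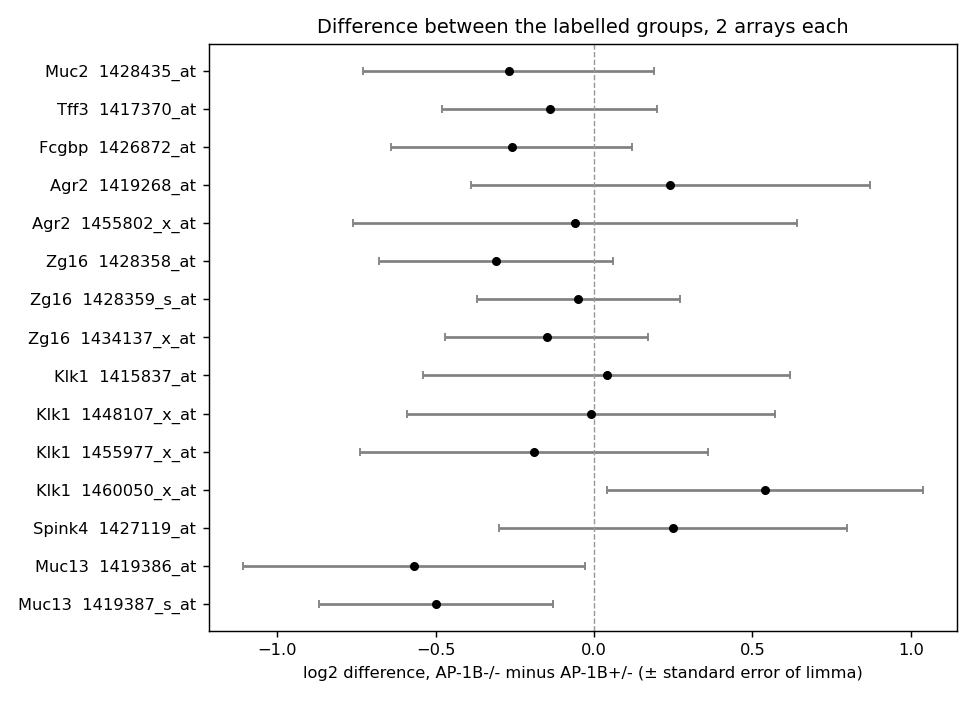
Log2 difference, AP-1B-/- minus AP-1B+/-, of each of the 15 probe sets by label (point) with the standard error from limma (bar), n = 2 arrays each. The dashed line marks no difference, and 0 of the 15 had an adjusted p under 0.05.

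By the probe set of highest mean and on deposited values, the main components of secreted mucus varied least of the 8 genes. Zg16 and Tff3 were also the brightest, at 631 and 433 on AP-1B+/- 1, where the highest signal of any probe set was 781.9. The dimmer Zg16 probe set 1428358_at varied 1.59-fold. Whether brightness narrowed these ranges was not tested. The ranking depended on the scaling. After quantile normalization the arrays of Klk1 (1448107_x_at) lay within 0.34 of each other on the log2 scale. AP-1B-/- 1 minus AP-1B+/- 1 was then −0.50 for Muc2, −0.46 for Tff3 and −0.40 for Fcgbp. Muc2, the gel-forming mucin that makes the mucus scaffold, had a signal of 107 and 107 on AP-1B-/- 1 and 2, against 113 and 147 on AP-1B+/- 1 and 2. The group means were 107 ± 0.27 in AP-1B-/- and 130 ± 24.0 in AP-1B+/- (SD, n = 2 each), without passing the test (log2 difference −0.27, standard error 0.46, adjusted p = 0.999907 by limma). Only AP-1B+/- 2 stood apart, and the groups did not overlap by a margin of 107 to 113. After quantile normalization the lowest array was instead AP-1B-/- 1, by 0.50 on the log2 scale below AP-1B+/- 1, and the groups overlapped.

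Fcgbp encodes a large secreted protein with von Willebrand factor type D domains that is bound into the mucus gel. It had 279 and 235 in AP-1B-/-, against 283 and 332 in AP-1B+/-, a mean of 257 ± 31.6 against 308 ± 34.7 (SD, n = 2 each). The gap between the groups, from 279 to 283, was small beside the spread within each (log2 difference −0.26, standard error 0.38, adjusted p = 0.999907 by limma). The groups of Fcgbp did not overlap after quantile normalization either.

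Tff3, the trefoil peptide of goblet cells, which acts in epithelial repair, had 402 and 347 in AP-1B-/-, against 433 and 392 in AP-1B+/-. These groups overlapped, and limma gave a log2 difference of −0.14 (standard error 0.34). The highest of the 4 arrays was 1.25 times the lowest. Of all probe sets tested, 94.9% had a wider range over the 4 arrays than Tff3, against 86.6% for Muc2 and 83.8% for Fcgbp.

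Zg16 encodes a lectin-like secreted protein that binds Gram-positive bacteria, and it was first named after the zymogen granules of the pancreas. Its 3 probe sets did not rank the arrays alike. The probe set 1434137_x_at had 556 and 459 in AP-1B-/-, against 631 and 498 in AP-1B+/-, and 1428359_s_at had 528 and 449, against 529 and 485. Both were lowest on AP-1B-/- 2, highest on AP-1B+/- 1, and overlapped between the groups. In contrast, 1428358_at had 274 and 428 in AP-1B-/-, against 416 and 437 in AP-1B+/-, so that AP-1B-/- 1 stood apart at 0.66 times AP-1B+/- 1. The suffix _x_at marks probe sets with probes shared with other sequences, and _s_at those that match several transcripts. The log2 differences of the 3 were −0.15, −0.05 and −0.31 in the order given, with standard errors of 0.32, 0.32 and 0.37.

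Agr2 varied most of the 8 genes. Agr2 is a protein disulfide isomerase of the endoplasmic reticulum, and its probe set 1419268_at had 172 and 54.0 in AP-1B-/-, against 55.3 and 119.6 in AP-1B+/-. AP-1B-/- 1 and AP-1B+/- 2 were high, AP-1B-/- 2 and AP-1B+/- 1 were low and nearly equal, and the labelled groups overlapped entirely. The group means were 113 ± 83.4 and 87.5 ± 45.4 (SD, n = 2 each, AP-1B-/- before AP-1B+/-), without passing the test (log2 difference 0.24, standard error 0.63, adjusted p = 0.999907 by limma). The other probe set, 1455802_x_at, had 32.8 and 11.6 in AP-1B-/-, against 11.6 and 35.7 in AP-1B+/-. It divided the arrays in the same way, with AP-1B+/- 2 slightly above AP-1B-/- 1. Its log2 difference by label was −0.06 (standard error 0.70), opposite in sign to that of 1419268_at.

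The within-number differences of Agr2 were opposite. By 1419268_at, AP-1B-/- 1 was higher than AP-1B+/- 1 by 1.63 on the log2 scale, and AP-1B-/- 2 differed from AP-1B+/- 2 by −1.14. After quantile normalization these were 1.20 and −0.63. Within the AP-1B-/- label, array 1 had 3.18 times the signal of array 2, and within the AP-1B+/- label array 2 had 2.16 times that of array 1. A range over the 4 arrays as wide as that of Agr2 was not rare, since 10.6% of all probe sets tested had a wider one.

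Spink4, a secreted protein of the Kazal-type serine protease inhibitor family that is found in goblet and Paneth cells, divided the arrays as Agr2 did. It had 341 and 121 in AP-1B-/-, against 120 and 244 in AP-1B+/-. AP-1B-/- 1 and AP-1B+/- 2 were high and the other arrays low, at 121 on AP-1B-/- 2 and 120 on AP-1B+/- 1. The group means were 231 ± 155 in AP-1B-/- and 182 ± 88.0 in AP-1B+/- (SD, n = 2 each), without passing the test (log2 difference 0.25, standard error 0.55, adjusted p = 0.999907 by limma). Between arrays of the same number, the log2 difference was 1.50 for number 1 and −1.01 for number 2, and 1.02 and −0.65 after quantile normalization.

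Klk1, the tissue kallikrein, is a secreted serine protease that releases kinins from kininogen, and it had 4 probe sets. The one with the highest mean, 1448107_x_at, had 50.4 and 27.7 in AP-1B-/-, against 29.8 and 47.3 in AP-1B+/-, and 1415837_at had 48.8 and 26.4, against 27.4 and 44.6. Both were high on AP-1B-/- 1 and AP-1B+/- 2 and overlapped between the labelled groups, with log2 differences of −0.01 and 0.04 and a standard error of 0.58 for each. The probe set 1455977_x_at had 33.3 and 25.9, against 28.6 and 39.3, with the same arrays on top by a smaller margin. The dimmest, 1460050_x_at, had 5.83 and 2.48, against 3.28 and 1.93, so that AP-1B+/- 2 was lowest there and not high. Klk1 belongs to a family of similar kallikrein genes in mice, and 3 of its 4 probe sets carry the suffix for shared probes, so the share of each gene in these signals is uncertain. After quantile normalization the arrays of 1448107_x_at lay within 0.34 of each other on the log2 scale, from −0.17 on AP-1B-/- 2 to 0.18 on AP-1B-/- 1 around their mean, against −0.43 to 0.42 for the same arrays before.

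The start-site windows of Agr2, Klk1 and Muc2 are shown, 250 bases before to 50 after the start, from RefSeq on GRCm38.p6. Whether these sequences bear on how the genes divided the arrays was not tested. Windows were found for 5 of the 8 genes, Muc2, Fcgbp, Agr2, Klk1 and Muc13. All 3 windows lie on the plus strand, Agr2 at chr12:35992675-35992974, Klk1 at chr7:44225110-44225409 and Muc2 at chr7:141690090-141690389. Capitals mark the letters CCACCC of the CACCC box that Klf factors bind, AGATAA of the GATA motif, TATAAA of the TATA box and CATCTG of the E-box, each searched on both strands.
Agr2: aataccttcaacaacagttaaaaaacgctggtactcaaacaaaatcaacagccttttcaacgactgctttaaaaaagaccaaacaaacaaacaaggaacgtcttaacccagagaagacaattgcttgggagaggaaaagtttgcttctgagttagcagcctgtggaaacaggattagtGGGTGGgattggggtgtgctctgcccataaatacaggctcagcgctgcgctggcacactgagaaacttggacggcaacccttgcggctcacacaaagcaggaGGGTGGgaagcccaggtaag
Klk1: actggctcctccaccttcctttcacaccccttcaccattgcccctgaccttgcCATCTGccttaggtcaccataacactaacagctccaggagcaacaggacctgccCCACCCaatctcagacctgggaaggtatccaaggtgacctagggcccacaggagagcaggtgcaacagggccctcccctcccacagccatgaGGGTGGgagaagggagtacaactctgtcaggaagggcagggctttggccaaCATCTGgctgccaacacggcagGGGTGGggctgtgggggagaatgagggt
Muc2: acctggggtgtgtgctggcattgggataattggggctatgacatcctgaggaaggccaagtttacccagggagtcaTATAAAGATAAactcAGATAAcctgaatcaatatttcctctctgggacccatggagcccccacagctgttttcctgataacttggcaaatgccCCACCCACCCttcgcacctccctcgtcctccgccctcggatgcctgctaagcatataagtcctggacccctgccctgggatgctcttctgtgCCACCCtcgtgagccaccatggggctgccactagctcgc

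All 3 windows hold a CACCC box on either strand, as do 31.5% of the 32851 windows of this length in the RefSeq table, and Fcgbp holds it too, so 4 of the 6 windows of the goblet genes do. In Muc2 the GATA motif occurs at −169 and −159 from the start site, the copy at −169 sharing a base with the TATA box letters at −174, and 11.2% of all windows hold this motif. The TATA box letters are in 13.6% and the E-box letters in 17.2% of all windows. Searches on both strands for GTAAACA, a FOX factor motif, found 0 of the 6 windows, and CCACG, a part of unfolded protein response elements, was found in 1, a window of Muc13, against 3.65% and 32.8% of all windows. These matches describe letters and no binding was measured.

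Muc13, the transmembrane mucin, was the only one of the 8 genes by its brightest probe set that was lowest on AP-1B-/- 1 on deposited values. After quantile normalization Muc2, Tff3, Fcgbp and Zg16 were lowest there too. Its probe set 1419387_s_at had 233 and 324 in AP-1B-/-, against 371 and 407 in AP-1B+/-, so both AP-1B-/- arrays lay below both AP-1B+/- arrays. The means were 278 ± 64.5 in AP-1B-/- and 389 ± 25.5 in AP-1B+/- (SD, n = 2 each). Limma gave a log2 difference of −0.50 (standard error 0.37, unadjusted p = 0.20, adjusted p = 0.999907). The other probe set, 1419386_at, had 47.0 and 77.1 in AP-1B-/-, against 68.8 and 116.7 in AP-1B+/-, which overlapped (log2 difference −0.57, standard error 0.54). For 1419387_s_at the log2 difference was −0.67 between the arrays numbered 1 and −0.33 between those numbered 2. After quantile normalization the first became −0.97 and the second −0.01, so the difference by label then lay almost wholly on AP-1B-/- 1.

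In the order of the Ap1m2 signal, AP-1B-/- 1, AP-1B+/- 2, AP-1B+/- 1 and AP-1B-/- 2, the 8 genes did not run alike. Agr2 had 172, 119.6, 55.3 and 54.0 in this order, Spink4 had 341, 244, 120 and 121, and Klk1 (1448107_x_at) had 50.4, 47.3, 29.8 and 27.7. For these 3 of 8 genes both arrays with little Ap1m2 signal lay above both with more, and for 0 of 8 they lay below. Over all probe sets tested those shares were 52.7% and 11.7%, so the division was at least as common in the table at large. After quantile normalization the same 3 genes lay above (28.4% of all probe sets) and Muc2, Tff3 and Zg16 lay below (24.9%). The place of Muc2, Tff3 and Zg16 in this order thus depended on the scaling. So did that of Klk1 1455977_x_at, which lay above on deposited values only. Klk1 1415837_at lay above on both scales and 1460050_x_at on neither. Since Agr2 and Spink4 differ by array and Muc2 little, their ratio to Muc2 within an array, which no common factor for an array alters, also differed by array. Relative to Muc2, Agr2 was higher on AP-1B-/- 1 than on AP-1B-/- 2 by 1.66 on the log2 scale, Spink4 by 1.48 and Klk1 by 0.85, against 0.21 for Tff3, 0.25 for Fcgbp, 0.27 for Zg16 and −0.48 for Muc13. On AP-1B+/- 2 against AP-1B+/- 1 the same quantity was 0.73 for Agr2, 0.65 for Spink4 and 0.29 for Klk1, and it was −0.52 for Tff3, −0.15 for Fcgbp, −0.72 for Zg16 and −0.24 for Muc13. The arrays differed by more than a common factor. Their upper quartiles were 5.57 on AP-1B-/- 1 and 5.54 on AP-1B+/- 2, against 4.27 on AP-1B-/- 2 and 4.13 on AP-1B+/- 1. After quantile normalization AP-1B+/- 2 minus AP-1B+/- 1 was −0.04 for Muc2, −0.25 for Tff3 and −0.24 for Zg16. It was 0.6 for Agr2, 0.69 for Spink4 and 0.08 for Klk1.

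**Figure D3:**
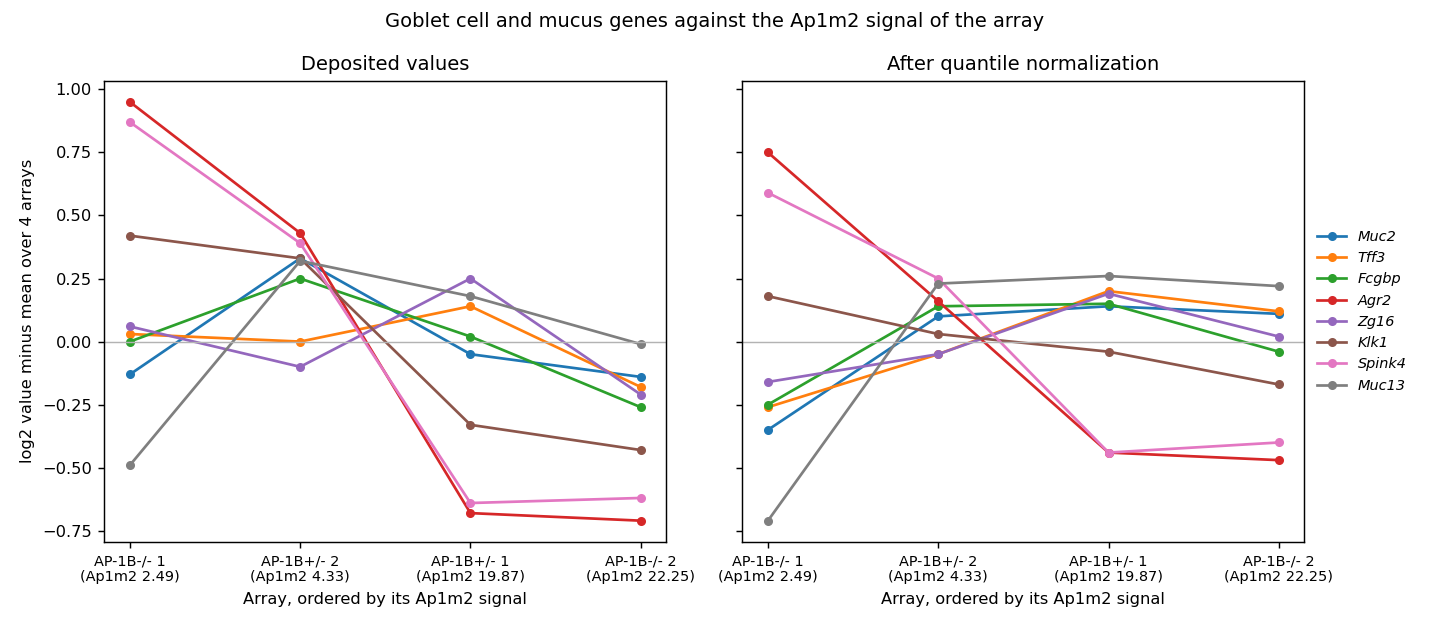
Log2 value of each gene (probe set of highest mean) minus its mean over the 4 arrays, with the arrays ordered by their Ap1m2 signal from low to high, on deposited values (left) and after quantile normalization (right). Agr2 and Spink4 were highest on AP-1B-/- 1 in both panels, at 0.95 and 0.87 on the left and 0.75 and 0.59 on the right, while Muc13 was lowest there, at −0.49 and −0.71.

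In single pairs of arrays, Agr2 and Spink4 were the 2 of 8 genes at least 2-fold higher on AP-1B-/- 1 than on AP-1B+/- 1, by deposited and by quantile-normalized values (19.0% and 9.29% of all probe sets tested). No gene of the 8 was at least 2-fold lower in that pair (6.43% and 9.67%). Both counts are by the probe set of highest mean. After quantile normalization the dimmer Muc13 probe set 1419386_at had a log2 difference of −1.04 in that pair. The dimmer Agr2 probe set 1455802_x_at then had 0.94, under 2-fold. AP-1B-/- 2 and AP-1B+/- 1, the arrays with the most Ap1m2 signal, were the most alike, with 0 of the 8 genes 2-fold apart and 3.286% of all probe sets.

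The genes of most similar pattern were sought over the 4 arrays among 19627 other probe sets, by the root mean square difference of centred log2 values. For Muc2 they were Tm2d1 (0.005), Mmp14 (0.007) and Cyp4f39 (0.009), and for Agr2 they were Nars (0.016), which encodes an asparaginyl-tRNA synthetase, Hnrnpk (0.018), which encodes an RNA-binding protein, and Adgrl2 (0.024). Nars had 87.9 and 27.3 in AP-1B-/-, against 27.8 and 59.3 in AP-1B+/-. With 4 arrays, a close match is easily had among so many probe sets.

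Other mucus products were as mixed. Of 20 further genes for secreted or membrane mucus products, 17 had a probe set and 11 passed the filter, of which 0 were called, 6 were higher and 5 lower in AP-1B-/- (median log2 difference 0.041). Clca1, a secreted goblet cell metalloprotease that cleaves Muc2, had 226 and 253 in AP-1B-/-, against 332 and 321 in AP-1B+/-. Its groups did not overlap, and both of its probe sets were lower (log2 difference −0.45, standard error 0.37, adjusted p = 0.999907 by limma). A lack of overlap was seen for 2 of the 11 genes, beside 17.3% of all probe sets tested. Dmbt1, a scavenger receptor glycoprotein of mucosal surfaces, had 575 and 341, against 313 and 506, and was thus high where Agr2 was high. Lypd8, a GPI-anchored protein that binds flagellated bacteria, had 452 and 381, against 370 and 437, and the transmembrane mucin gene Muc3 had 207 and 272, against 306 and 210. Of those with the largest differences, Tff2 had 0.43 and 7.49, against 9.01 and 3.19 (log2 difference −1.24, standard error 0.85), Sval1 had 4.27 and 0.397, against 1.48 and 3.54 (−0.54, 0.72), and Tff1 had 6.69 and 24.2, against 7.57 and 11.1 (0.46, 0.64). Tff1 and Tff2 are trefoil peptides of gastric and Brunner gland mucous cells, and neither followed Tff3. Muc1, Muc5ac and Muc5b were below the filter, as was Retnlb, a goblet cell gene of the resistin-like family.

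Genes of goblet cell fate and secretory machinery passed the filter at 26 of 26, with 0 called, 11 higher and 15 lower in AP-1B-/- (median log2 difference −0.068). Of the brightest, Xbp1, a transcription factor of the unfolded protein response, had 157 and 119 in AP-1B-/-, against 115 and 156 in AP-1B+/-. Klf4, a factor of goblet cell differentiation, had 96.5 and 112, against 127 and 123, and its groups did not overlap (log2 difference −0.26, standard error 0.46). The granule fusion gene Vamp8 had 83.2 and 93.8, against 85.4 and 115, and Nlrp6, an inflammasome sensor linked to mucus granule release in mice, had 41.7 and 46.6, against 41.1 and 54.2. The largest differences were those of Foxa2 (3.38 and 3.85, against 1.81 and 2.77, log2 difference 0.62), the actin-severing protein gene Scin (18.8 and 38.0, against 45.4 and 34.3, −0.55), Rab27a (4.25 and 3.39, against 5.72 and 5.31, −0.50) and Sytl2 (6.88 and 4.76, against 7.96 and 8.19, −0.47). Rab27a and its binding partner Sytl2 act in vesicle secretion, and the groups of both, and of Foxa2, did not overlap. A lack of overlap was seen for 6 of the 26 genes, beside 17.3% of all probe sets tested. Of the 2 Rab27a probe sets above the filter, 1 was lower in AP-1B-/- and the other higher. Both arrays with little Ap1m2 signal were above the others for 16 of the 26 genes, and for 9 after quantile normalization, beside the 52.7% and 28.4% of all probe sets.

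Mucin O-glycosylation enzymes passed the filter at 17 of 21 with a probe set, with 0 called, 7 higher and 10 lower in AP-1B-/- (median log2 difference −0.008). B4galnt2, which adds a terminal N-acetylgalactosamine, had 157 and 184 in AP-1B-/-, against 192 and 253 in AP-1B+/-, with groups that did not overlap (log2 difference −0.38, standard error 0.42). C1galt1c1, the chaperone of the core 1 synthase, had 59.7 and 36.2, against 35.9 and 71.3. Of the transferases that start O-glycan chains, Galnt4 had 72.7 and 36.2, against 27.9 and 59.0, Galnt1 had 48.2 and 42.7, against 43.0 and 57.1, Galnt7 had 37.2 and 33.8, against 39.6 and 51.7, and Galnt10 had 10.6 and 7.59, against 9.72 and 17.6. The sialyltransferase gene St6galnac1 was dim, at 0.941 and 1.27, against 1.70 and 1.52. A lack of overlap was seen for 3 of the 17 genes, beside 17.3% of all probe sets tested. Both arrays with little Ap1m2 signal were above the others for 11 of the 17 genes on deposited values and for 9 after quantile normalization, beside the 52.7% and 28.4% of all probe sets. They were below for 0 and for 2 genes, beside 11.7% and 24.9% of all.

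Markers of other cell types also differed by array. Marker genes of proliferating crypt cells were higher on AP-1B-/- 1 than on any other array at 9 of 9 that passed the filter, with summed signals of 453 and 149 in AP-1B-/-, against 147 and 234 in AP-1B+/-. On deposited values the arrays high for Agr2 and Spink4, those with little Ap1m2 signal, also had the highest sums. Both lay above the other arrays for 8 of the 9 markers on deposited values and for 5 after quantile normalization. Over all probe sets tested those shares were 52.7% and 28.4%. Among these markers Pcna had 197 and 70.4, against 74.0 and 121, and Top2a had 36.5 and 13.2, against 13.0 and 18.8. The part of these cells in the Agr2 and Spink4 values was not tested. T cell markers ran the other way, lowest on AP-1B-/- 1 at 9 of 9, with sums of 12.7 and 299, against 480 and 97.6. Gzma had 5.79 and 149, against 244 and 53.8, and Ccl5 had 2.01 and 61.8, against 93.2 and 13.3. Shares of all probe sets highest or lowest on AP-1B-/- 1 were not counted. Spink4 is also a Paneth cell product, and 6 Paneth cell markers had sums of 496 and 207, against 678 and 323, with Lyz1 at 381 and 150, against 512 and 248, and Itln1 at 79.8 and 40.5, against 114 and 53.4. The part of Paneth cells in the Spink4 values was not tested.

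Muc13 is also made by enterocytes, and 9 of 9 enterocyte markers had a lower mean of log2 values in AP-1B-/-, with 0 called and a median log2 difference of −0.235. Their sums were 3045 and 2975 in AP-1B-/-, against 3591 and 3211 in AP-1B+/-. As with Muc13, 4 of the 9 were lowest on AP-1B-/- 1, namely Lct, Anpep, Slc5a1 and Slc15a1. The other enterocyte markers were lowest on AP-1B-/- 2 on deposited values. Among them, Fabp1 and Alpi were highest on AP-1B-/- 1. Lactase (Lct) had 3.97 and 237 in AP-1B-/-, against 312 and 82.3 in AP-1B+/-. The aminopeptidase gene Anpep had 46.7 and 190, against 203 and 137, in the same order. The glucose transporter gene Slc5a1 had 119 and 308, against 312 and 281, and the peptide transporter gene Slc15a1 had 9.03 and 33.4, against 33.6 and 29.0. The part of enterocytes in the Muc13 values was not tested.

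Zg16 is known from the pancreas as well, and 13 acinar markers had sums of 53.9 and 151 in AP-1B-/-, against 55.4 and 61.0 in AP-1B+/-. Their brightest, Cela1 and Clps, had 27.7 and 19.8, against 8.63 and 21.8, and 11.7 and 16.5, against 30.6 and 10.9, while the acinar enzyme gene Cpa1 had 0.089 and 8.88, against 0.079 and 0.166. The part of acinar cells in the Zg16 values was not tested. Gastric and Brunner gland markers (5 passing the filter) had sums of 20.0 and 60.2, against 30.6 and 27.6, with Gkn3 at 11.2 and 7.25, against 11.1 and 6.94. Enteroendocrine markers had sums of 179 and 202, against 253 and 273, with Chgb at 68.2 and 53.9, against 83.1 and 87.2, and Gip at 31.4 and 66.9, against 71.5 and 57.1. Tuft cell markers had sums of 10.1 and 17.1, against 19.7 and 13.0, with Sh2d6 at 1.47 and 4.94, against 4.92 and 2.54, and Dclk1 at 2.14 and 3.22, against 3.83 and 2.73.

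**Figure D4:**
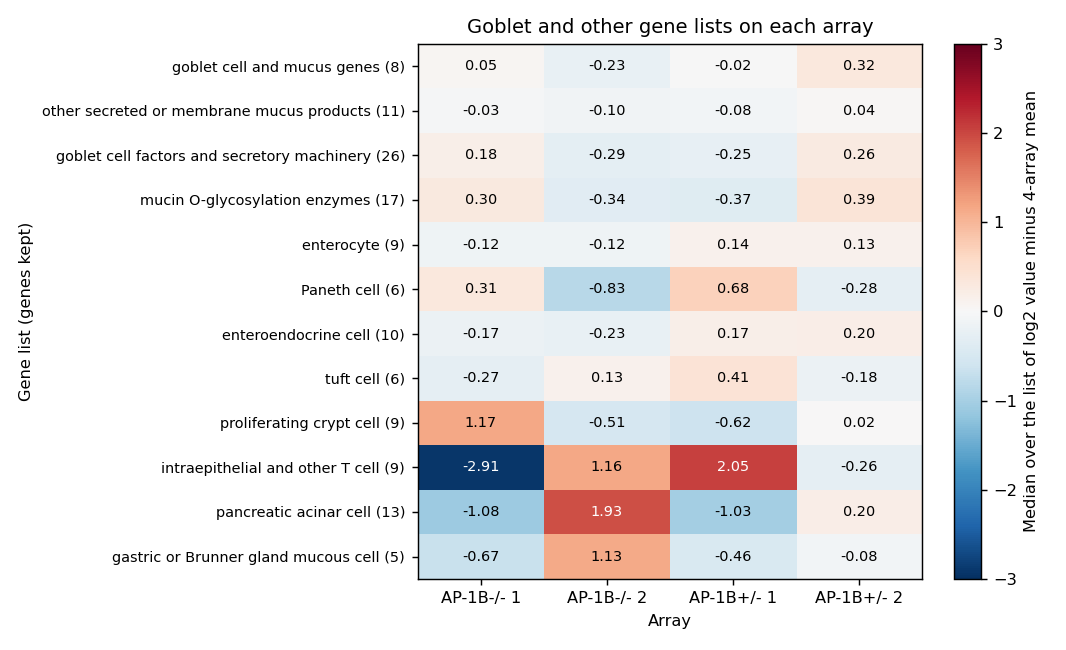
Median, over the genes of each list that passed the filter (their number in parentheses), of the log2 value minus the gene's mean over 4 arrays, by array, with red for above and blue for below that mean. The 8 goblet cell and mucus genes ranged from −0.23 on AP-1B-/- 2 to 0.32 on AP-1B+/- 2, against −2.91 to 2.05 for the T cell markers and −0.62 to 1.17 for proliferating crypt cells.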

How the data were processed

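The deposited table gave each probe set 1 linear intensity on each array. MAS5 is named in the submitters' processing notes, with no version given in the sources used here, and the array medians of 0.996 to 0.998 show a rescaling that the labels do not state. The platform annotation supplied the gene names, with 34945 probe sets named for 1 gene, 932 for several and 9160 for none, and a gene was named only from the first kind. Values were transformed as log2(value + 0.32), the pseudocount being the 25th percentile of all values, so fold differences of dim probe sets are understated. Probe sets with a mean over the 4 arrays of at least 0.983 were kept (22519). The comparison of AP-1B-/- with AP-1B+/- arrays used limma 3.58.1, run in R 4.3.3 (intensity trend, Benjamini-Hochberg adjustment over all kept probe sets, threshold 0.05). The fit was also run on simulated independent arrays. Those lacked the shift between arrays seen here, so that run does not show how the fit performs on these arrays. Permuting 2 against 2 arrays exactly gives no p under 0.333, so it was left out. Detection calls and scan dates were not used here, and precision is limited by having 4 arrays. A gene with several probe sets is counted by the kept one of highest mean.

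From each pathway list the 4 brightest genes and the 4 with the largest difference are named, and from each marker list the 2 brightest. Retnlb, Muc1, Muc5ac, Muc5b, Cpa1, Lct, Anpep, Slc5a1 and Slc15a1 were named outside this rule after their values were seen. The goblet cell marker list holds Clca1 in place of Muc13 and otherwise the same genes. The members and lists were chosen with earlier results of these data known.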

Additional observations from a re-analysis of the deposited data

How the results depend on the processing

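Over all probe sets, 0 calls were made under other pseudocounts (0.1 and 1), without the filter, with quantile normalization or median centring, with no intensity trend, with a robust fit, and at an adjusted threshold of 0.10. Testing only the brightest 25% of probe sets gave 1 call, which was no goblet or mucus probe set. With each array left out, the calls ranged from 0 to 240. They were 24 without AP-1B-/- 1 and 240 without AP-1B-/- 2, and no goblet or mucus probe set was among them (lowest limma adjusted p of any over all alternatives 0.642). The lone array of a label was then assumed to vary like the other label's. With the replicate number as a block there were 0 calls. The labels do not say what a number marks, and same-numbered arrays deviated in opposite directions (r = −0.511 across 22519 probe sets), so crossed pairs, chosen after seeing the data, were also fitted and gave 0 calls.

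The median log2 difference of the 8 genes was −0.146, with −0.145 after quantile normalization and −0.337 to −0.024 with 1 array left out. Of the goblet and mucus probe sets, the only sign turned with all arrays in was that of Klk1 1448107_x_at, at 0.01 after quantile normalization. With 1 array left out, log2 differences ranged from −0.59 to 1.08 (Agr2 1419268_at), −0.86 to 0.74 (Agr2 1455802_x_at), −0.49 to 0.99 (Spink4), −0.43 to 0.42 (Klk1 1448107_x_at), −0.40 to 0.48 (Klk1 1415837_at), −0.42 to 0.04 (Klk1 1455977_x_at) and −0.02 to 1.11 (Klk1 1460050_x_at). For Zg16 they ranged from −0.63 to 0.01 (1428358_at), −0.17 to 0.06 (1428359_s_at) and −0.32 to 0.02 (1434137_x_at). Agr2 1419268_at and Spink4 were below 0 without AP-1B-/- 1 (−0.59 and −0.49) and without AP-1B+/- 1 (−0.31 and −0.26). Muc2 (−0.46 to −0.09), Tff3 (−0.25 to −0.04), Fcgbp (−0.39 to −0.13) and both Muc13 probe sets (−0.95 to −0.19 and −0.74 to −0.26) stayed below 0, a sign already fixed by the lack of overlap for Muc2, Fcgbp and 1419387_s_at. The list medians were not stable in sign: with 1 array left out that of the other mucus products (0.041) ranged from −0.077 (without AP-1B-/- 1) to 0.156 (without AP-1B-/- 2) and was −0.027 after quantile normalization. That of goblet cell factors (−0.068) ranged from −0.394 (without AP-1B-/- 1) to 0.234 (without AP-1B+/- 2), and that of O-glycosylation enzymes (−0.008) from −0.423 (without AP-1B+/- 1) to 0.370 (without AP-1B+/- 2). The causes were not tested. With 2 arrays per label, a lack of calls does not show a lack of difference.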
